A study of Mus musculus with 7 samples.

Results

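The potassium channel genes of the mouse are described here in the cells of the trigeminal ganglion, the cluster of sensory neurons that serves the face, teeth and mouth. Members were all genes of the deposited matrix whose symbol begins with Kcn, leaving out Kcnq1ot1, a long non-coding RNA of the Kcnq1 locus. This gave 98 members among 32285 genes, of which 4 are transcripts annotated on the strand opposite to a channel gene. All 98 had at least 1 UMI (unique molecular identifier, 1 counted RNA molecule) in the cells used, and 87 had at least 20. The 11 below that were Kcna10, Kcna3, Kcna7, Kcnab3os, Kcne1, Kcne2, Kcnj1, Kcnj5, Kcnk15, Kcnk16 and Kcnv2, with 1 to 17 UMIs each, and they entered no comparison.

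The cells came from 1 droplet library (10x Genomics) of dissociated trigeminal ganglion from wild-type mice at postnatal day 3.5, and the labels do not state how many animals it pools. The series also has RNA of molars at postnatal day 7.5 after tamoxifen (TMX), from 3 control samples (Fgfr2fl/fl) and 3 mutant samples (Gli1-CreER;Fgfr2fl/fl), which are not analysed here. The ganglion library has no replicate and no untreated partner. Differences below are therefore between groups of cells within 1 library, with no test, and every interval is a 95% interval that covers counting error only.

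Potassium channels let potassium ions leave or enter cells and set the resting potential, the shape of the action potential and the rate of firing. Voltage-gated alpha subunits (Kcna to Kcnd, Kcnq, Kcnh) assemble as tetramers, and electrically silent alpha subunits (Kcnf, Kcng, Kcns, Kcnv) and auxiliary proteins (Kcnab, Kcnip, Kcne) alter them. Inward rectifiers (Kcnj), two-pore background channels (Kcnk) and channels opened by calcium or sodium (Kcnma, Kcnn, Kcnt) complete the family. In sensory ganglia these genes are known for the resting conductance and excitability of nociceptors, and in glia for the uptake of potassium that neurons release.

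Of 13065 barcodes, 9427 had at least 1000 UMIs, at least 500 genes and at most 20% mitochondrial UMIs, with a median of 10861 UMIs and 3651 genes. Cells were placed into classes by the summed UMIs of marker lists that hold no potassium channel gene, so each class name means cells that resemble that type by its list. A class was given to 7528 cells, 1674 passed no gate, with a median of 2744 UMIs, and 225 passed more than 1 gate and were left out. The gates are cuts on a score: 12 of 481 neurons and 12 of 345 satellite glia lay within 1.25-fold of their cut, against 71 of 457 proliferating Schwann cells. Skeletal cells also carried the connective list at a median of 699.5 UMIs per 10000, and central astrocytes (380 UMIs per 10000) and macrophages (272) carried the satellite list, which includes Apoe. UMIs of neuron markers were present in every class. The 12 neuron markers stood at a median of 1.27% (central astrocytes) to 2.96% (B lineage) of their neuronal level outside neurons, and at 1.35% in erythroid cells, red cell precursors that are not known to make them.

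The promoters of Kcnj10 and Kcnk1 are shown because their genes, with Kcna2, were the only members past 2-fold higher in mature myelinating Schwann cells than in quiescent immature ones (below). Both are the 250 bases before the RefSeq transcription start (GRCm38.p6), 5′ to 3′, on the plus strand. Capitals mark the GC box GGGCGG and the core ACAAT of SOX factor sites, on either strand. The Kcnj10 window is chr1:172340960-172341209, directly before the gene, which spans 172341210 to 172374085 of chromosome 1 in GENCODE vM21, and it holds 2 GC boxes and no SOX core. The Kcnk1 window is chr8:125994852-125995101, before a gene that spans 125995170 to 126030685 of chromosome 8, and it holds 2 SOX cores and no GC box.
Kcnj10: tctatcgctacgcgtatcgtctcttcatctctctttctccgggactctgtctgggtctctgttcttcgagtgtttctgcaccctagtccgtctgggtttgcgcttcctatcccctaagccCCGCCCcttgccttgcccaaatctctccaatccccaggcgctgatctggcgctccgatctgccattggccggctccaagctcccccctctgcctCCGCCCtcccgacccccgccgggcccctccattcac
Kcnk1: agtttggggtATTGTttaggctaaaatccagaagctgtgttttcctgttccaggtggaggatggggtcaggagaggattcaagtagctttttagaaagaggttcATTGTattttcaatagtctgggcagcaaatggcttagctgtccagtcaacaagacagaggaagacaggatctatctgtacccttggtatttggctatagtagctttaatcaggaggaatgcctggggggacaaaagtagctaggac

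Over all 32851 RefSeq windows of this length, 27.7% held the SOX core and 32.7% the GC box. Of the 96 windows of the 71 members found in the table, 17 held the SOX core and 43 the GC box. A match describes letters in a window, not a bound site.

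The summed level of the family was highest in neurons. Potassium channel genes took 2598 counts per 1000000 UMIs (CPM) in the 481 neurons (95% interval 2580 to 2615), against 782 CPM in the 7047 other gated cells together. Among the other classes the sum lay between 876 CPM (proliferating) and 1210 CPM (quiescent) over the Schwann stages. It was 1012 CPM in satellite glia, 1314 CPM in central oligodendrocytes and 1428 CPM in central astrocytes. Mural cells, the contractile cells of small vessels, reached 1307 CPM, of which 1 gene, Kcnj8, gave 55.7%. The sum was lowest in neutrophils and monocytes (218 CPM), erythroid cells (246 CPM), endothelial cells (278 CPM) and macrophages (301 CPM). The member with the most UMIs gave 15.6% of the family's UMIs in neurons (Kcnip4) and 12.2% in neutrophils and monocytes (Kcnip4, from 3 cells). It gave 14.95% in endothelial cells (Kcnq1) and 18.0% in satellite glia (Kcnh8). It gave 63.7% in B lineage cells (Kcnq5) and 58.3% in erythroid cells (Kcnn4). UMIs are not given per length, so such shares say which member was counted most, not which is expressed most.

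**Figure D1:**
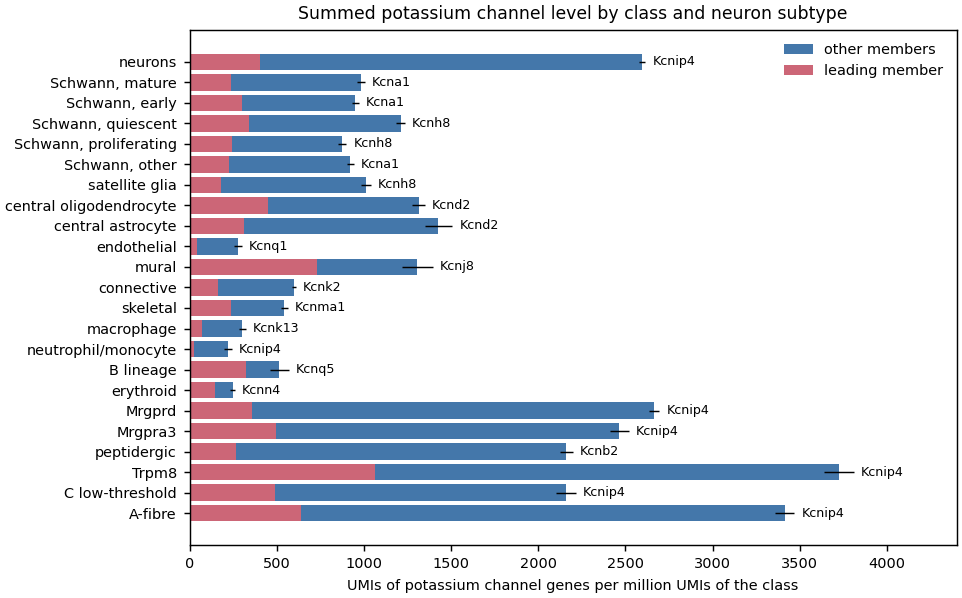
Summed level of the potassium channel genes (x axis, CPM of the class) in each class and neuron subtype. The red part of a bar is the member with the most UMIs, named beside it, and whiskers are 95% counting intervals; neurons and their subtypes lie at 2157 CPM or more and every other class at 1428 CPM or less.

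At an equal depth of 5000 UMIs per cell, a neuron held a median of 8 different members (quartiles 6 and 11, 412 cells, 69 shallower cells left out). Schwann stages held a median of 3 or 4, satellite glia 4, central astrocytes 4.5, endothelial cells and macrophages 1, and erythroid cells 0. At 20000 UMIs, the subtyped neurons held medians of 18 (Mrgpra3) to 22.5 (A-fibre) members per cell. The lowest cell had 7 members and the highest 33.

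Neurons were compared with all other gated cells. A member was counted when it differed at least 2-fold with at least 20 UMIs over both sides. Higher in neurons were 54 of 87 members, where 21.1% of all genes tested were, and 19 were lower, where 35.9% of all genes were. The median log2 ratio was 2.51 for the members and -0.33 over all genes. Of the 85 members with at least 10 UMIs in a class, 45 had their highest CPM in neurons, 8 in satellite glia and 5 each in mural cells, endothelial cells and central astrocytes. This count has no share over all genes to set beside it. Mural cells and central astrocytes were small classes, of 75 and 61 cells. CPM relates a gene to all RNA of the class, and neurons held a median of 76526 UMIs per cell. Counted as UMIs per cell, 8 members rather than 19 were lower in neurons, and Kcna1, Kcnab3, Kcnd2, Kcne1l, Kcnh8, Kcnj2 and Kcnmb3 lay on the other side of 1.

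Among voltage-gated alpha subunits (Kcna to Kcnd), 10 of 14 were higher in neurons and 2 lower. For this and each family below, the shares over all genes were 21.1% higher and 35.9% lower. Kcnc4, a fast channel that sharpens action potentials, was at 77.7 CPM in neurons and 1.52 CPM elsewhere, 51.2-fold (43.0 to 61.4). The related Kcnc2 and Kcnc1 were 41.6-fold and 32.7-fold higher. Kcnb2, a delayed rectifier, stood at 265 CPM against 9.36 CPM, 28.3-fold. The A-type channels Kcnd1 and Kcnd3 were 17.2-fold and 6.11-fold higher, but their relative Kcnd2 was 3.18-fold lower in neurons. With central oligodendrocytes and central astrocytes left out of the comparison, Kcnd2 was 1.27 times as high in neurons as elsewhere, on the other side of 1. Kcna1 and Kcna2, the subunits that flank the nodes of myelinated axons, took no part in the neuronal excess. Kcna1 was at 29.4 CPM in neurons and 90.1 CPM elsewhere, and Kcna2 at 63.8 and 49.6 CPM. For Kcna1 the order depended on the comparator: with every class weighted equally the ratio was 1.31 in favour of neurons.

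Of the electrically silent subunits, 8 of 9 were higher in neurons and none lower. Kcns2 was 46.0-fold, Kcng1 39.3-fold and Kcnf1 34.4-fold higher, each at under 7 CPM in neurons as a whole. They are known to alter channels of the Kcnb type, among which Kcnb2 was higher in neurons (above). The remaining member, Kcng4, had 12 UMIs in neurons and 17 elsewhere.

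Of the 5 Kcnq genes, 2 were higher in neurons and 1 lower. Kcnq3, a subunit of the M-current, which damps repeated firing, was at 25.1 CPM in neurons and 5.80 CPM elsewhere, 4.33-fold (3.87 to 4.84). Kcnq5 was at 32.8 CPM in neurons and 50.7 CPM elsewhere, and Kcnq1 was 8.56-fold lower in neurons (7 UMIs against 160). Among the Kcnh genes, 6 of 8 were higher, led by Kcnh7 at 114 against 2.40 CPM (47.7-fold) and Kcnh1 at 21.4 against 0.525 CPM (40.8-fold). Kcnh8 went the other way, at 21.3 CPM in neurons and 92 CPM elsewhere.

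The two-pore gene Kcnk18, which encodes TRESK, a background channel known from sensory neurons, had the largest ratio of the family. It was at 59.5 CPM in neurons and 0.525 CPM elsewhere, 113-fold (84.7 to 155), and spans 59219214 to 59237374 of chromosome 19. Its level outside neurons, pooled over all other cells, was 0.882% of that in neurons, below the median of the neuron markers in every other class. Macrophages stood above the pooled level, at 2.66 CPM from 8 UMIs in 6 cells. That was 5.94-fold (2.39 to 12.9) above the other non-neuronal cells. With cells thinned to 5000 UMIs, 21.8% of neurons had a Kcnk18 UMI, against 0.208% of Schwann cells and 0.219% of erythroid cells. Unthinned, 51.8% of neurons had one, at a median of 76526 UMIs per neuron. Kcnk9 (TASK-3) was 40.6-fold, Kcnk12 27.2-fold, Kcnk3 (TASK-1) 18.6-fold and Kcnk10 15.8-fold higher. Kcnk2 (TREK-1) was level, at 45.6 and 46.2 CPM. Kcnk5 was 18.3-fold lower, and Kcnk6 had 1 UMI in neurons against 181 elsewhere, 67.8-fold lower (12 to 2692).

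Auxiliary and ion-activated members were split. Kcnip4, a calcium-binding partner of Kcnd channels, was at 404 against 10.1 CPM, 40.2-fold, though its gene overlaps many unnamed gene models on both strands. Kcnab2 was 26.0-fold and Kcnip2 23.9-fold higher. Kcne4 was 36.8-fold lower and Kcnrg 22.9-fold lower. Kcnmb1, a beta subunit of the large calcium-activated channel, was 67.9-fold higher (229 UMIs against 9). Kcnt1, a sodium-activated channel, was 28.2-fold and the small-conductance channel Kcnn2 27.2-fold higher, while Kcnn3 was 8.72-fold and Kcnn4 18.0-fold lower.

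Of the inward rectifiers, 6 of 13 were higher, where 21.1% of all genes were, and 6 lower, where 35.9% were. Kcnj11, the pore of the ATP-sensitive channel of excitable cells, was at 12.7 against 0.194 CPM, 65.3-fold (40.3 to 113). Kcnj12 was 20.5-fold and Kcnj3, a G-protein-gated channel, 13.6-fold higher. Lower in neurons were Kcnj10 (23.3-fold), Kcnj8 (15.8-fold), Kcnj16 (5.62-fold) and Kcnj2 (46 UMIs against 348), and also Kcnj13 and Kcnj15, which had at most 3 UMIs in neurons. Outside neurons, 13 of the 87 members stood at or below 2.96% of their neuronal level, the highest median of the neuron markers. This count has no share over all genes to set beside it. The 13 members include Kcnc4, Kcnh7, Kcnip4, Kcnj11, Kcnk18, Kcnk9 and Kcnmb1. The percentage of the neuronal level pools all other cells, and single classes lay above it. Kcnip4 was at 105 CPM in central astrocytes (94 UMIs), and Kcnh7 at 13.7 CPM in neutrophils and monocytes (20 UMIs). Kcnmb1 was at 6.06 CPM in mural cells from 4 UMIs, and Kcnk18 at 2.66 CPM in macrophages from 8 UMIs.

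**Figure D2:**
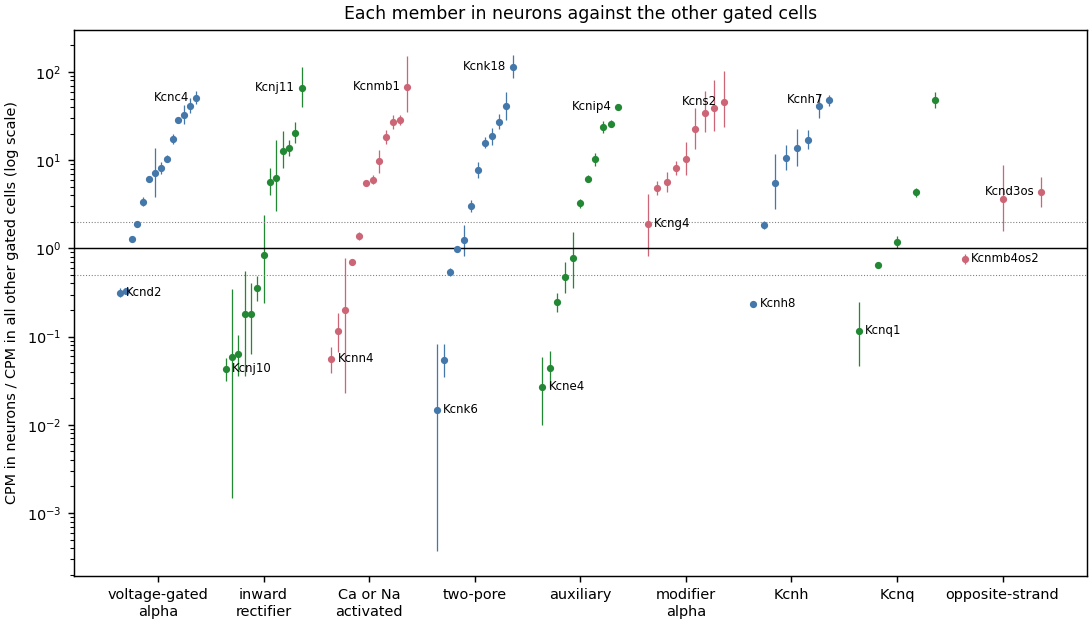
Ratio of CPM in neurons to CPM in all other gated cells (y axis, log scale) for the 87 members with at least 20 UMIs, grouped by family on the x axis, with 95% counting intervals. Dotted lines mark 2-fold; the lowest and highest members of most families are named, from Kcnk6 at the bottom to Kcnk18 at the top.

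Genes whose products work with the channels were read from a list of 26. In neurons 16 of the 23 with enough UMIs were higher and 4 lower, with a median log2 ratio of 1.89. Over all genes 21.1% were higher and 35.9% lower, with a median of -0.33. Dpp6 and Dpp10, auxiliary subunits of Kcnd channels, were 36.1-fold and 29.5-fold higher. Cntnap2 and Cntn2, which gather Kcna channels beside the node, were 57.0-fold and 55.8-fold higher, although Kcna1 was not. The sulfonylurea receptors went with their pores: Abcc8, the partner of Kcnj11, was 41.1-fold higher in neurons, and Abcc9, the partner of Kcnj8, was lower (1.40 against 8.42 CPM). Of 20 genes for potassium transport and buffering, 10 were higher (21.1% of all genes) and 6 lower (35.9%). The sodium pump subunit Atp1b3 was at 331 against 128 CPM, and Aqp4, a water channel of glia, at 2.92 against 44.2 CPM.

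Neurons with at least 5000 UMIs were assigned a subtype by marker lists, and each subtype was compared with the other subtyped neurons, 359 in all. The other 122 neurons had no subtype list above its cut (53) or fewer than 5000 UMIs (69). These comparisons share cells, since every neuron is in 1 subtype and in the comparator of the others. The 14 neurons gated by a list of Nppb and Sst were counted only among the others. Mrgpra3 and C low-threshold neurons also carried the Mrgprd list above its cut of 12 UMIs per 10000, at medians of 13.3 and 19.3. Trpm8 neurons carried the A-fibre list at a median of 5.85, under its cut of 8. In all, 72 of 432 pairs of member and subtype were higher, with every subtype reaching a share above that of all genes. The shares were 13 of 72 members in Mrgprd neurons (3.36% of all genes), 6 of 72 in Mrgpra3 neurons (5.23%), 14 of 72 in peptidergic neurons (9.2%), 13 of 72 in Trpm8 neurons (7.8%), 8 of 72 in C low-threshold neurons (4.19%) and 18 of 72 in A-fibre neurons (13%). The median member was lower rather than higher in each subtype, with median log2 ratios from -0.63 (Trpm8) to -0.10 (A-fibre).

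The 28 Trpm8 neurons, the cold-sensing cells, had the highest summed level, 3724 CPM, of which Kcnip4 gave 28.6%. Without Kcnip4, A-fibre neurons were higher, at 2774 CPM against 2659 CPM in Trpm8 neurons. Kcnk9 was at 157 CPM in Trpm8 neurons and 6.21 CPM in the other subtyped neurons, 25.3-fold (21.0 to 30.6). Its next levels were 17.6 CPM in peptidergic and 14.6 CPM in A-fibre neurons, and it was at 0.185 CPM in Mrgprd neurons. At 5000 UMIs per cell, 57.1% of Trpm8 neurons had a Kcnk9 UMI (37.2 to 75.5), against 9.89% of peptidergic neurons and none of 105 Mrgprd neurons. The gene lies at 72501089 to 72546340 of chromosome 15. Kcnk2, another background channel, was at 221 CPM, 6.82-fold higher, and had a UMI in 28 of 28 Trpm8 neurons. Peptidergic neurons followed for Kcnk2, at 105 CPM, 3.53-fold above the other subtyped neurons. Kcnh8 was at 140 CPM (10.5-fold), Kcnh7 at 440 CPM (4.71-fold) and Kcnc1 at 94.4 CPM (3.98-fold). A-fibre neurons had Kcnh7 at 234 CPM and Kcnc1 at 67.2 CPM. Kcnip4 stood at 1065 CPM, its highest level, against 185 CPM in peptidergic neurons, its lowest among subtypes. Kcnj4 was at 14.1 CPM, 5.77-fold higher from 29 UMIs, 20.7% of them from 1 cell, and A-fibre neurons had it at 15.2 CPM. Kcnk18 was at 1.46 CPM in Trpm8 neurons.

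A-fibre neurons, the large cells with myelinated axons, summed to 3414 CPM and held the most members past 2-fold. Kcnh5, an eag-type voltage-gated channel, was at 31.4 against 1.35 CPM, 23.2-fold (15.9 to 34.7). Kcnq3 was at 123 CPM against 9.34 CPM, 13.2-fold, its highest level among the subtypes. Kcna1 was at 147 CPM, 14.0-fold higher, with UMIs in 48 of 56 cells, and Kcna2 at 173 CPM, 3.59-fold. Trpm8 neurons had Kcna2 at 152 CPM. Kcnh3 was 13.4-fold and Kcnj4 12.3-fold higher, Kcnj4 at 15.2 CPM beside 14.1 CPM in Trpm8 neurons. The Schwann lineage list had a median of 7.33 UMIs per 10000 in A-fibre neurons, against 1.12 to 5.70 in the other subtypes. The myelin gene Prx was at 7.62 CPM there and at 3.89 to 9.45 CPM in the other subtypes, against 1535 CPM in mature Schwann cells. Kcna1 in A-fibre neurons was at 147 CPM where mature Schwann cells had 240 CPM, and Kcnk1 at 44.6 CPM where they had 139 CPM.

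Peptidergic neurons (91 cells) summed to 2161 CPM. Kcng1, a silent subunit, was at 21.5 against 1.17 CPM, 18.4-fold (12.2 to 28.7), with UMIs in 41 of 91 cells. Kcns2 was 9.11-fold higher, the sodium-activated Kcnt2 at 58.6 CPM 7.25-fold, and Kcnk3 at 55.7 CPM 5.37-fold. Kcnv1 was at 12 CPM here and 14.1 CPM in C low-threshold neurons, and at most 1.52 CPM in the other 4 subtypes. Kcnq5 was at 73.0 CPM, 3.76-fold higher. The other sodium-activated gene, Kcnt1, had another order: it was at 38.0 CPM in peptidergic neurons but at 135 CPM in Mrgprd and 162 CPM in Mrgpra3 neurons, where Kcnt2 was at 8.61 and 18.8 CPM. In Trpm8 neurons both were low, at 5.36 CPM (Kcnt1) and 1.46 CPM (Kcnt2).

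Mrgprd neurons (105 cells), non-peptidergic nociceptors of the skin, summed to 2664 CPM. Kcnmb1 was at 15.8 against 2.26 CPM, 6.99-fold (4.99 to 9.97), and its pore Kcnma1 at 185 CPM, 2.15-fold. Kcnmb1 lies within Kcnip1 on the opposite strand. Kcnip2 was at 103 CPM (4.75-fold), with UMIs in 102 of 105 cells, and Kcnk12 at 77.4 CPM (4.44-fold) in 92 cells. Kcnk13 was 4.23-fold and Kcnj11 3.74-fold higher. Subtypes that also carried the Mrgprd list shared some of these. Kcnip2 was at 66.2 CPM in C low-threshold and 41.6 CPM in Mrgpra3 neurons. Kcnk12 was at 54.3 CPM and Kcnj11 at 18.8 CPM in Mrgpra3 neurons. Kcnk18 was at 93.8 CPM in Mrgprd neurons and 111 CPM in Mrgpra3 neurons, the itch-sensing cells, followed by 28.2 CPM in peptidergic, 15.2 CPM in A-fibre, 5.25 CPM in C low-threshold and 1.46 CPM in Trpm8 neurons. At 5000 UMIs the shares of cells with a Kcnk18 UMI were 35.2% of Mrgprd neurons (26.2 to 45.2) and 32.3% of Mrgpra3 neurons (16.7 to 51.4). The CPM and these shares put the pair in opposite orders, and no order was read between them. The share was 15.4% in peptidergic neurons. None of 28 Trpm8 neurons had one at that depth, which allows a share of up to 12.3% (exact Clopper-Pearson upper limit) of cells with a UMI. Unthinned, 2 of the 28 had one, with 3 UMIs in all.

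Mrgpra3 neurons (31 cells) had 6 members past 2-fold, close to the share over all genes. Besides Kcnk18 (2.14-fold) and Kcnt1 (2.08-fold), Kcnj3 was at 41.9 against 15.1 CPM, 2.78-fold (2.27 to 3.38), with UMIs in 27 of 31 cells. Kcna5 (8 UMIs) and Kcnn4 (7 UMIs) also counted, and the interval of Kcnn4 included 1. C low-threshold neurons (34 cells), which respond to gentle touch, had Kcnd3 at 159 against 47.0 CPM, 3.39-fold (3.02 to 3.80), and Kcna4 at 59.3 CPM, 3.40-fold. Both carry fast-inactivating A-type current. Kcnj6 was 7.05-fold higher with UMIs in 14 of 34 cells. Kcne1l (18 UMIs) and Kcnv1 (35 UMIs) were 4.03-fold and 3.77-fold higher. Kcnq3 had no UMI in 2477878 UMIs of these cells, which allows up to 3 counts, where A-fibre neurons had 532 UMIs.

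**Figure D3:**
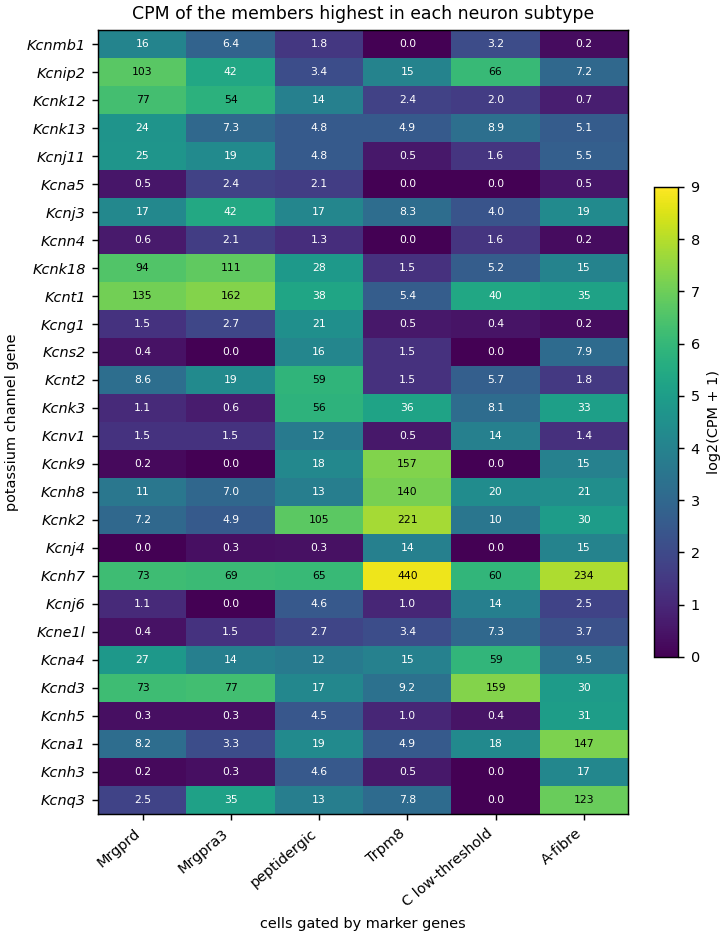
CPM of members with the largest ratios in each of the 6 neuron subtypes (rows are genes, columns are subtypes, colour is log2(CPM + 1), printed numbers are CPM). Trpm8 neurons stand out for Kcnk9, Kcnh8, Kcnk2 and Kcnh7, and A-fibre neurons for Kcnh5, Kcna1 and Kcnq3.

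Schwann cells wrap or support axons, and 3350 were gated and divided into stages by the myelin, immature and cell cycle lists. Stages are ranges of a score: 122 of 560 mature and 128 of 732 early cells lay within 1.25-fold of the limit between them. Comparing mature myelinating (560 cells) with quiescent immature cells (886 cells), 3 of 38 members were higher (7.07% of all genes) and 13 lower (18.3%). The share of higher members, 7.89%, was near that of all genes. The quiescent cells also carried the connective list at a median of 72.7 UMIs per 10000, against 15.8 in mature cells, and the part this plays in the lower members was not tested.

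The largest difference was in Kcnk1, which encodes TWIK-1, a background channel. It was at 3.99 CPM in quiescent, 17.1 CPM in early and 139 CPM in mature cells, and mature cells were 34.9-fold above quiescent ones (24.7 to 51.0). At 5000 UMIs per cell, 1.55% of quiescent, 6.61% of early and 46.4% of mature cells had a Kcnk1 UMI. Kcnj10, which encodes Kir4.1, the rectifier of glial potassium uptake, was at 36.7, 78.5 and 111 CPM over the same stages, 3.04-fold higher in mature cells (2.65 to 3.48). Kcna2 was at 75.6, 108 and 180 CPM, 2.38-fold higher. Kcna1 was highest in early cells, at 302 CPM, with 240 CPM in mature, 131 CPM in quiescent and 68.1 CPM in proliferating cells. Schwann cells as a whole had 200 CPM of Kcna1, against 5.81 CPM in the other non-neuronal cells, 34.4-fold.

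Lower in mature cells were Kcnh8, an Elk-type voltage-gated channel, at 338 CPM in quiescent, 109 CPM in early and 32.0 CPM in mature cells, a 10.6-fold difference (9.19 to 12.2). Kcna6 was at 24.2 CPM in mature and 154 CPM in quiescent cells, 6.38-fold lower, and Kcnq5 at 27.6 and 128 CPM, 4.64-fold lower. Kcnn4 was 13.3-fold and Kcne1l 5.43-fold lower. Kcnk13 was 17.9-fold lower from 1 UMI against 22 (2.90 to 740). The intervals of Kcnh7 and Kcnt1, also among the 13, included 1.

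Proliferating cells (457 cells) differed little from quiescent ones. Of 36 members, 1 was higher, Kcnab3 at 4.31 against 2.05 CPM (5.54% of all genes were), and 1 was lower, Kcnh2 at 6.22 against 13.9 CPM (4.88% of all genes were). Kcnh8 was at 243 CPM, Kcna6 at 97.7 CPM and Kcnk1 at 3.35 CPM. Of the 26 channel partners, 18 had enough UMIs, of which 3 were lower in mature than in quiescent cells, near the 18.3% of all genes, and none was higher. The lower ones include Adam23 (23.9 against 220 CPM) and Ank3. Of the 16 transport genes with enough UMIs 4 were higher (7.07% of all genes) and 4 lower (18.3%). Fxyd6, a pump regulator, was at 1802 against 80.7 CPM, and the pump subunit Atp1b3 was 2.27-fold higher.

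**Figure D4:**
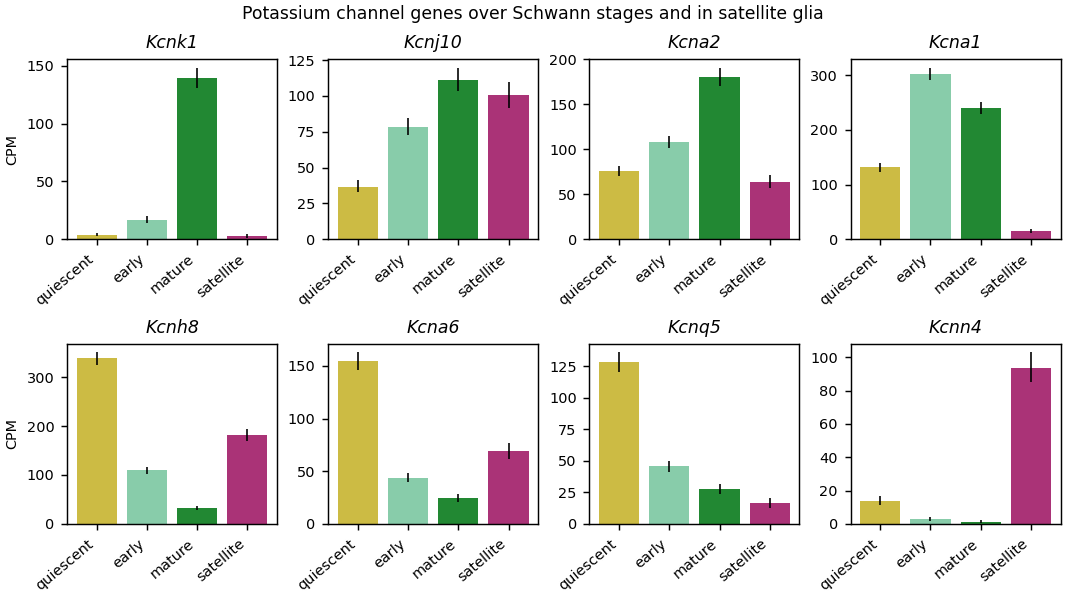
CPM (y axis, from 0) of 8 members in quiescent immature, early myelinating and mature myelinating Schwann cells and in satellite glia, with 95% counting intervals. Kcnk1, Kcnj10 and Kcna2 step up from quiescent to mature cells, Kcnh8, Kcna6 and Kcnq5 step down, and Kcnn4 is highest in satellite glia.

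Satellite glia (345 cells), which enclose the cell bodies of the neurons, were compared with all Schwann lineage cells. Higher were 14 of 60 members (13.5% of all genes), and 13 were lower (10.2%). Kcnj10, their textbook marker, was at 101 CPM in satellite glia, 111 CPM in mature, 78.5 CPM in early and 36.7 CPM in quiescent Schwann cells, so it did not separate the glial types. Its share of cells at 5000 UMIs was 37.2% in satellite glia (32.0 to 42.7) and 39.6% in mature Schwann cells (35.1 to 44.2), against 0.656% in erythroid cells. Kcnj16, which forms mixed channels with Kcnj10, was 27.6-fold higher in satellite glia (24 UMIs against 7, 11.6 to 75.9).

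Kcnn4, an intermediate-conductance calcium-activated channel, was at 93.8 CPM in satellite glia and 6.91 CPM in Schwann cells, 13.6-fold (11.6 to 15.9), with UMIs in 202 of 345 cells. Erythroid cells, where Kcnn4 encodes the Gardos channel of red cells, had 144 CPM. The share of cells with a UMI at 5000 UMIs was 36.6% in satellite glia, 33.3% in erythroid cells and 3.96% in Schwann cells. Kcna4 was at 21.8 against 1.89 CPM (11.5-fold), Kcnk3 at 7.41 against 0.762 CPM (9.73-fold), Kcnma1 at 26.5 against 2.84 CPM (9.33-fold) and Kcnh2 at 59.7 against 13.8 CPM (4.33-fold). Of these, Kcna4, Kcnk3 and Kcnma1 are also neuronal genes. They stood in satellite glia at 21.8, 7.41 and 26.5 CPM where neurons had 19.8, 19.7 and 119 CPM, and the 12 neuron markers were at a median of 2.02% of their neuronal level in satellite glia.

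Lower in satellite glia were Kcna1 at 15.7 against 200 CPM (12.8-fold, 10.1 to 16.3), Kcnk1 at 2.75 against 31.1 CPM (11.3-fold) and Kcnq5 at 16.3 against 68.2 CPM (4.18-fold). Kcnt2, Kcnk13 and Kcne4 were lower from 1 UMI each in satellite glia, with counting intervals of the inverse ratio that began at 2.02 for Kcnt2 and included 1 for the others. Where a member counted only if its interval also left out 1, 6 of the 13 lower members stayed, a rule chosen after the values were seen. Of the 19 transport genes with enough UMIs 9 were higher (13.5% of all genes) and 1 lower (10.2%) in satellite glia. Aqp4 was at 163 against 1.34 CPM and the pump subunit Atp1b2 at 85.7 against 7.72 CPM. Against all other non-neuronal cells, 16 of 75 members were higher in satellite glia (9% of all genes) and 9 of 75 in Schwann cells (7.71%). In Schwann cells Kcna1, Kcna2 (7.03-fold), Kcnh8 (6.74-fold), Kcna6 (5.35-fold) and Kcnmb4os2 (4.91-fold) led. Of these, only Kcna1 differed 2-fold between Schwann cells and satellite glia. Satellite glia had 302 UMIs of Kcna2, 858 of Kcnh8, 327 of Kcna6 and 97 of Kcnmb4os2 among 4723315. Schwann cells had 3665, 6758, 3078 and 739 among 38068886.

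In vessels, mural cells (75 cells) had 11 of 20 members higher than endothelial cells (255 cells), where 11.1% of all genes were, and 6 lower (16.4%). The numbers are small, and with every cell thinned to 5000 UMIs 3 were higher and 1 lower. No share over all genes is given for the thinned cells. Kcnj8, the pore of the vascular ATP-sensitive channel, was at 729 CPM in mural and 14.3 CPM in endothelial cells, 51.0-fold (36 to 74.6), with UMIs in 65 of 75 mural cells. It lies at 142564837 to 142571614 of chromosome 6. At 5000 UMIs per cell, 80% of mural cells had a Kcnj8 UMI (67.7 to 89.2), against 3.09% of endothelial and 2.36% of connective cells. Its regulatory partner Abcc9 was at 624 against 31.5 CPM, 19.8-fold higher in mural cells, so both subunits of the channel were high in the same class. Kcnq5 was at 71.2 CPM in mural cells, with UMIs in 24 of 75, against 3 UMIs in endothelial cells (ratio 56.5, 18.2 to 284). Kcnd2 also counted as higher, but its 60 UMIs came from 3 of 75 mural cells, 96.7% of them from 1 cell, so its ratio of 72.2 (23.5 to 360) describes that cell. Kcne4 had a ratio of 20.4 (5.91 to 109, with 3 UMIs in endothelial cells), and Kcnma1 was 12-fold higher.

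Endothelial cells had Kcnq1 at 41.6 CPM, against 1 UMI in mural cells (27.4-fold, 4.81 to 1095), and 0.715 CPM in the other non-neuronal cells (58.1-fold, 41.8 to 81.3). Kcne3, an auxiliary subunit that assembles with Kcnq1, was at 10.1 CPM, 61.4-fold above the other non-neuronal cells, from 24 UMIs. Kcnj2, the classical strong inward rectifier of endothelium, was at 17.2 CPM, with no UMI in mural cells. With 0 set to 3 counts over the class, Kcnj2 was 3.79-fold higher, with a counting interval that began at 2.94. Kcne3 and Kcnk5, also without a UMI in mural cells, were 2.22-fold and 2.31-fold higher on that setting. Their intervals began at 1.67 and 1.74. Against all other non-neuronal cells, 14 of 75 members were higher in endothelial cells (14% of all genes) and 16 of 75 in mural cells (14.1%). The 16 include Kcnk9, Kcnj6, Kcnc4, Kcnn2 and Kcns3, each from 1 to 3 UMIs in mural cells and with an interval that included 1. Kcnd2 also counted, from the mural cells described above.

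Connective cells (1463 cells) had 24 of 75 members higher than the other non-neuronal cells (17.7% of all genes). The largest ratio was that of Kcne4, at 25 against 1.27 CPM (19.6-fold). Kcnk2 was at 166 against 10.4 CPM, 15.9-fold (14.6 to 17.3), above the 45.6 CPM of neurons. Kcnt2 was at 44.8 CPM (11-fold), Kcnmb2 at 13.8 CPM (12.2-fold) and Kcnj15 at 1.78 CPM (13.4-fold, 36 UMIs). Skeletal cells (214 cells, cartilage and bone markers) had 7 of 75 higher (6.87%), led by the calcium-activated Kcnma1 at 240 against 8.07 CPM, 29.7-fold, with UMIs in 185 of 214 cells.

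Cells with markers of central glia were also present. In central oligodendrocytes (206 cells) 24 of 75 were higher (13.7% of all genes), with Kcnd2 at 452 against 10.7 CPM (42.1-fold) in 134 cells, Kcnq3 at 79.3 CPM (32.9-fold), Kcnip1 at 22.3 CPM (22.2-fold) and Kcnip3 at 61.5 CPM (18.2-fold). In central astrocytes (61 cells) 23 of 75 were higher (15.1%). Kcnj16 was at 41.3 against 0.611 CPM (67.6-fold, 43.2 to 105), above its 5.08 CPM in satellite glia. Kcnn2 was at 45.8 CPM (43.2-fold), Kcnj6 at 15.6 CPM (41.1-fold) and Kcne1l at 201 CPM (25.2 to 35.5-fold), and Kcnj10 was at 72.6 CPM. Central glia made up 3.55% of the gated cells, yet supplied 76.6% of the Kcnd2 UMIs outside neurons.

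Blood and immune cells had low sums. Macrophages (340 cells) had 7 of 75 members higher (13.6% of all genes, a larger share), with Kcnk13, which encodes THIK-1, a background channel of microglia and macrophages, at 70.6 against 1.63 CPM, 43.3-fold (34.8 to 54.1). Kcnk6 was at 15.7 CPM, 9.89-fold. Neutrophils and monocytes (156 cells) had 9 of 75 higher (10.8%), with Kcnk12 at 23.9 CPM (23.7-fold) from 35 UMIs in 22 cells. No member stood out in their sum: Kcnip4 gave 12.2% of it, with 39 UMIs from 3 of 156 cells. B lineage cells (93 cells) had 5 of 75 higher (14.9%, a larger share). Kcnq5 was at 326 against 48.5 CPM, 6.73-fold, from 228 UMIs in 55 cells, 12.3% of them in 1 cell. Other classes had Kcnq5 too, with 574 UMIs among 3856494 in central oligodendrocytes and 1060 among 8275541 in quiescent Schwann cells. Erythroid cells (489 cells) had 1 of 75 higher (4.96%), Kcnn4 at 144 against 10.3 CPM, 14.0-fold.

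**Figure D5:**
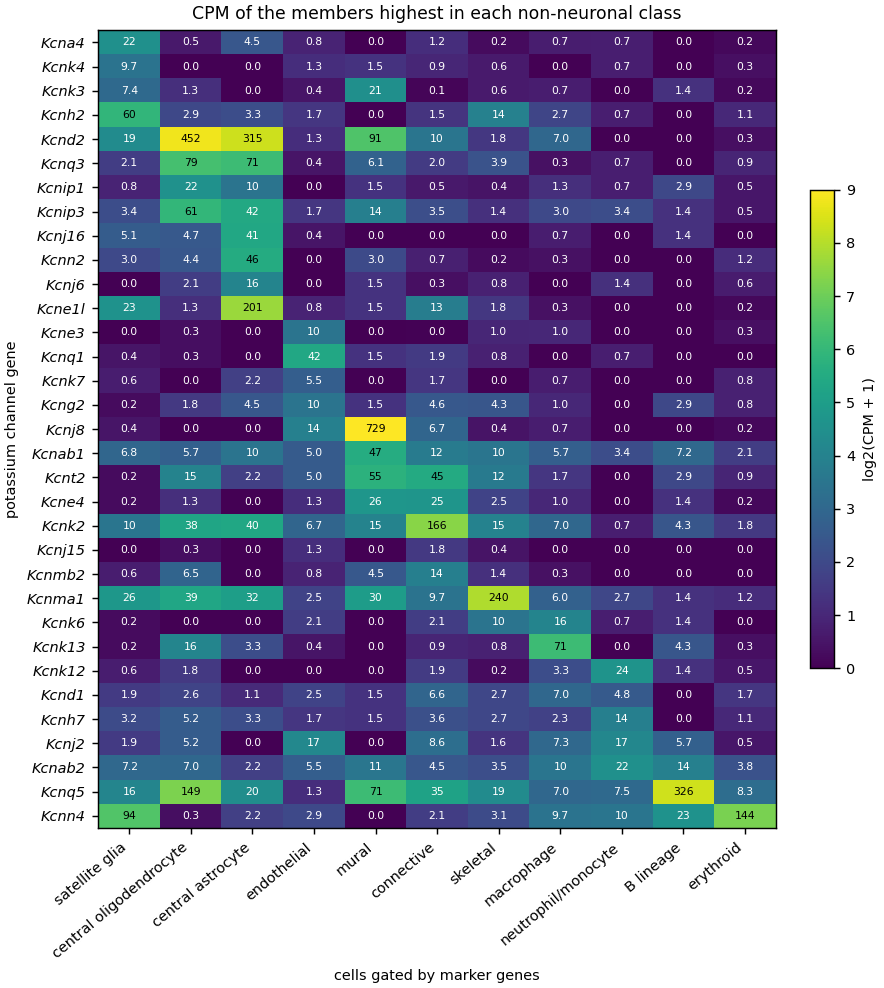
CPM of members with the largest ratios in the 11 non-neuronal classes outside the Schwann lineage (rows are genes, columns are classes, colour is log2(CPM + 1), printed numbers are CPM). The brightest entries of their rows include Kcnj8 in mural, Kcnk13 in macrophage, Kcnma1 in skeletal, Kcnk2 in connective and Kcnq5 in B lineage cells. Kcnq5 was also at 71.2 CPM in mural cells and had 574 UMIs among 3856494 in central oligodendrocytes.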

How the data were processed

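The trigeminal ganglion library was deposited by the authors as a matrix of UMI counts per gene and barcode. The build mm10 and version 3.1.0 of Cell Ranger are listed in the submitters' processing notes, but the counts carry Cell Ranger 7.0.1 as their software, per the file headers. No source used here states if introns were included. The 6 molar samples were not analysed here.

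Barcodes were kept at 1000 UMIs, 500 genes and at most 20% mitochondrial UMIs. Classes, stages and subtypes were gated on UMIs of marker lists per 10000. Members, lists and tests were chosen with earlier results of these data known, and the gate levels were settled after their values were seen. Sums of UMIs over a class were converted to CPM, with exact Poisson intervals, ratios with exact conditional binomial intervals and shares with Clopper-Pearson intervals (Python 3.11.15, numpy 2.4.6, scipy 1.17.1, pandas 2.3.3). A side with 0 UMIs was set to 3 counts. The counting was checked on simulated data.

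Cells passing more than 1 gate were left out as possible doublets. Scrublet (scanpy 1.11.5) marked 2 cells by its own limit, so its calls were not used, and leaving out the top 8% of scores was an alternative. The text names the 5 members of highest CPM in each class, up to 10 in each direction in neurons, up to 5 in each other comparison, members of their families, and textbook markers. In the annotation 17 members overlap another gene on their own strand and 43 on the other, and reads there may be shared. The results of some genes are not reported here. UMIs are not given per length, so members were ranked by CPM only to choose which to name and to give the one counted most in a class. No test was possible with 1 library, and other settings are in the closing section.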

Additional observations from a re-analysis of the deposited data

Results flagged for a closer look

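Potassium channel UMIs also appeared in barcodes that entered no comparison. The 1674 kept cells that passed no gate held the members at 920 CPM (95% counting interval 902 to 938), led by Kcnq5 at 110 CPM, Kcnip4 at 105 CPM and Kcnb2 at 96.8 CPM. The 225 cells that passed more than 1 gate held them at 1135 CPM (1109 to 1161), led by Kcnip4 at 62.0 CPM. The 3638 barcodes outside the cell filter held them at 326 CPM (316 to 337), led by Kcnb2 at 31.8 CPM and Kcnip4 at 24.6 CPM.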

How the results depend on the processing

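No paired analysis was possible because the single-cell library has no second sample and no replicate. The 54 members higher in neurons ranged from 39 to 69 over 16 alternatives. The 19 lower became 8 as UMIs per cell and 12 with cells thinned to 5000 UMIs. The 72 subtype calls ranged from 29 (at 4-fold) to 91: from 4 to 22 in Mrgprd, 0 to 11 in Mrgpra3, 6 to 18 in peptidergic, 5 to 18 in Trpm8, 2 to 11 in C low-threshold and 11 to 19 in A-fibre neurons. In mature Schwann cells, the 3 higher became 1 with gates raised 2-fold, 5 as UMIs per cell, 9 with no minimum and 1 at 4-fold, and the 13 lower became 7 with raised gates, 23 with mixed cells given to their highest gate, 6 at 50 UMIs, 22 with no minimum and 6 at 4-fold. In satellite glia, the 14 higher became 25 with no minimum and 8 at 4-fold, and the 13 lower became 5 with thinning, 6 at 50 UMIs, 6 at 4-fold, 8 without the top Scrublet scores and 6 where the interval also left out 1. In mural cells, the 11 higher became 3 with thinning, 3 at 50 UMIs and 27 with no minimum, and the 6 lower became 1 with thinning, 1 at 50 UMIs and 3 at 4-fold. Stricter limits test fewer genes by construction, and for the rest the cause was not tested. The counts under other settings are given without a share over all genes, so they do not set the members against all genes.

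Of 1605 recomputed ratios of 183 named pairs of member and comparison, 1189 stayed within the counting interval, 403 moved in the same direction and 13 reversed. As UMIs per cell the ratio in neurons became 1.79 for Kcna1, 2.61 for Kcnab3, 1.72 for Kcnd2, 1.35 for Kcne1l, 1.27 for Kcnh8, 1.94 for Kcnj2 and 1.09 for Kcnmb3. Against Schwann cells and satellite glia alone it was 1.28 for Kcnd2 and 1.18 for Kcnj2, with central classes left out 1.27 for Kcnd2, and with classes weighted equally 1.31 for Kcna1. The ratio of Kcnc2 in satellite glia was 0.984 as a mean over cells, and that of Kcnj12 in C low-threshold neurons 0.708 with thinning. The interval rule and the comparison without central classes were chosen after seeing the data. Subtraction of neuronal RNA at the level of the neuron markers does not apply between neurons and was not run for subtypes.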
